A study of Mus musculus with 8 samples.

Results

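The genes described here are 34 genes of autophagy, mitophagy and the lysosome, measured in mouse left ventricle after angiotensin II (angII) infusion. They were taken by name from a count table of 46040 genes, and all 34 passed the low-count filter that left 13542 genes to test. By the main test 0 of the 34 differed between VEGFR-1 TK-/- and control libraries beyond the spread between libraries. Their differences were small: on the log2 scale they ran from -0.21 to 0.23, with a median of 0.02, and for each gene the ranges of the 2 groups overlapped.

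Autophagy encloses cytoplasm in a membrane, the autophagosome, which fuses with a lysosome whose acid hydrolases break the content down. The ULK kinase complex starts the process, a lipid kinase complex marks the membrane, conjugation enzymes attach ATG8 proteins (LC3 and GABARAP) to it, and receptors bring in the cargo. Mitophagy is the same route for damaged mitochondria, which matters in the heart because cardiomyocytes are long-lived and packed with mitochondria. Much of the control of autophagy acts on proteins, through phosphorylation, conjugation and turnover, and is not read by RNA levels.

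The series held 8 RNA-seq libraries of left ventricular tissue from C57BL/6 mice. The mice were male, 5 to 7 months old, and received angII at 0.1 mg/kg/h from minipumps under the skin, a model of pressure overload, with tissue taken at day 14. The 4 knockout-tagged libraries came from VEGFR-1 TK-/- mice, in which the allele lacks the intracellular tyrosine kinase domain of the receptor in every cell from conception. The 4 control-tagged libraries came from their littermates, and every library of both groups was from an infused animal, so no uninfused baseline was compared. The study sampled the mice that survived the infusion, and it reported higher mortality in the VEGFR-1 TK-/- mice. The part of this selection in the differences was not tested. Groups follow the genotype tag and the library name, which go together in all 8 libraries. The sample titles give the opposite genotype, and if the titles were right every difference below would change sign. The library names also carry the word cardiomyo, whereas the source is given as ventricle tissue. Nothing in the labels says that each library is a separate animal, so the p-values measure the spread between these libraries. Because the tissue is a mixture, fewer cells of one type and less RNA per cell cannot be told apart.

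Total counts ran from 11449137 to 16239670 per library. Control replicate 3 was the deepest library and had the lowest scaling factor, 0.917 against 0.938 to 1.12 in the other 7. Flt1, the targeted gene that encodes VEGFR-1 (chromosome 5, 147561604 to 147726011, GRCm38), was the only one of the 13542 genes called by the quasi-likelihood test. Its normalised CPM (CPM: counts scaled to a common library size, here also corrected for composition) was 67.4, 68.4, 56.9 and 84.3 in control replicates 1 to 4, against 144, 149, 169.6 and 168 in the knockout-tagged ones. The log2 fold change was 1.19 (SE 0.12, adjusted p = 0.00808, edgeR's quasi-likelihood test). Counting all exons together cannot tell a transcript that encodes the kinase domain from one that lacks it, so this value does not by itself check the genotype. The depth behind the 34 genes was not low: the smallest count of any of them in any library was 141, for Atg14, and the largest was 35908, for Ctsd.

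A gene was called where the false discovery rate was under 0.1 and the change was at least 1.5-fold. By edgeR's quasi-likelihood test 0 of the 34 genes were called, where 0.00738% of all genes tested were. The likelihood ratio test of edgeR also called 0 of the 34, against a background of 0.391%, and DESeq2 called 0, against 0.236%. At an unadjusted p under 0.05 the quasi-likelihood test had 0 of the 34 genes, against 8.96% of all genes tested, made up of 3.32% higher and 5.64% lower in the knockout-tagged libraries. DESeq2 had 1 gene at that threshold, Sqstm1, against 8.67% of all genes. The groups did not overlap for 0 of the 34 genes, against 4.98% of all genes. The estimate was higher in the knockout-tagged libraries for 22 genes and lower for 12 (35.3%), where 50.3% of all genes tested were lower. For 14 of the 34 the sign turned with another processing or with a library left out. The genes share the same libraries, so their signs are not independent.

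**Figure D1:**
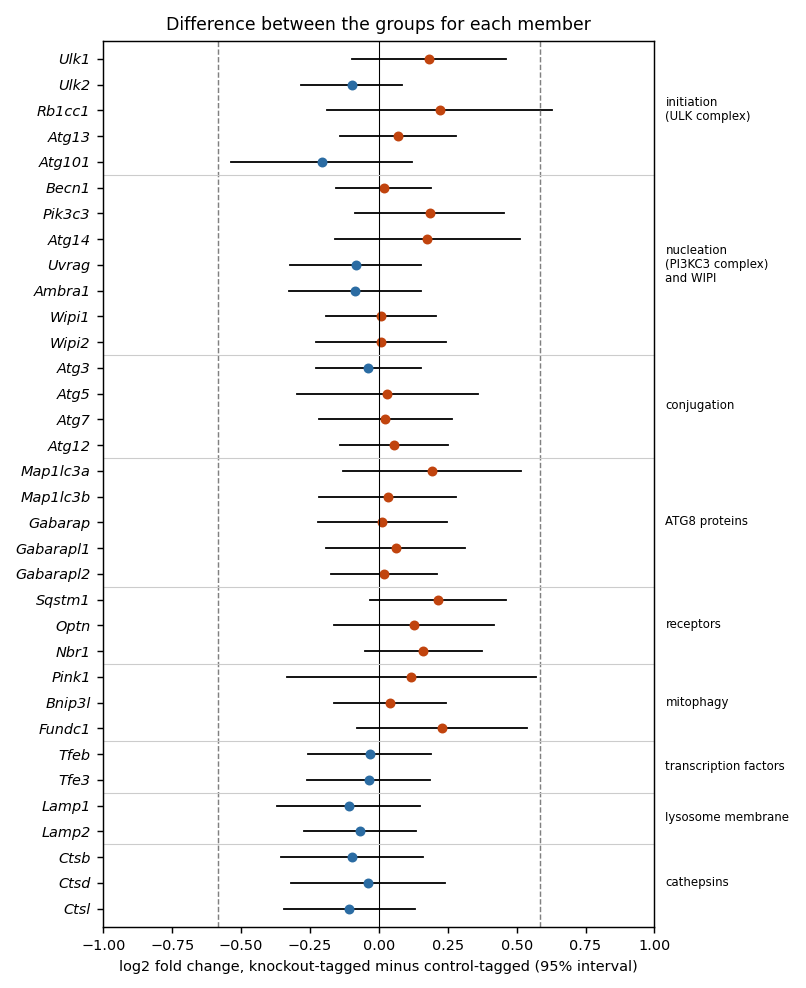
The horizontal axis gives the log2 fold change of each of the 34 genes, knockout-tagged minus control-tagged, with points for the estimate (orange above 0, blue below) and bars for its 95% interval over 4 against 4 libraries; dashed lines mark a 1.5-fold change. Every interval includes 0, and only that of Rb1cc1, from -0.19 to 0.63, passes a dashed line.

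The intervals also bound how large a difference these libraries could hide. For 33 of the 34 genes (97.1%) the 95% interval of the difference lay wholly inside a 1.5-fold change in either direction, where that was so for 64.8% of all genes tested. The median size of the difference, regardless of sign, was 0.08 among the 34 genes and 0.13 among all genes. All genes tested reach down to the low-count filter, whereas 29 of the 34 were above the middle in level per kb. The 2 sets were not matched for level, so these values do not show the 34 genes to be unusually steady. The gene outside was Rb1cc1.

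In the ULK complex, which receives the signals that start autophagy, 3 genes were estimated higher and 2 lower. Ulk1, the kinase that phosphorylates the later machinery, had normalised CPM of 101, 82.3, 117 and 122 in control replicates 1 to 4 and of 117, 133, 124 and 105 in the knockout-tagged replicates. Control replicates 1 and 2 lay below all 4 knockout-tagged values and control replicates 3 and 4 lay among them. The log2 difference was 0.18 (SE 0.13, adjusted p = 0.704, edgeR), and 0.08 without control replicate 2. Its relative Ulk2 was at 90.5, 81.2, 94.8 and 87.0 in the control-tagged and at 82.5, 87.2, 80.3 and 80.3 in the knockout-tagged libraries, a log2 difference of -0.10 (SE 0.08).

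Rb1cc1 encodes FIP200, the scaffold on which the ULK complex assembles, and its interval was the second widest of the set after that of Pink1. Its normalised CPM was 37.2, 47.4, 24.0 and 49.6 in the control-tagged and 44.7, 52.3, 43.7 and 43.5 in the knockout-tagged libraries. Control replicate 3 was the lowest of all 8, and without it the log2 difference of 0.22 (SE 0.19) became 0.04. Atg101, which stabilises Atg13 in the complex, was the member estimated furthest down, at -0.21 (SE 0.15). Here control replicate 3 stood at the top, with 39.1 normalised CPM against 25.5, 26.6 and 27.1 in the other controls and 22.2 to 29.1 in the knockout-tagged libraries. Leaving it out took the difference to -0.04. Atg13 itself, the regulatory subunit, differed by 0.07 (SE 0.10).

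Of the 7 genes that act in membrane nucleation, 5 were estimated higher and 2 lower, all within -0.09 to 0.19 on the log2 scale. Becn1, the core of the lipid kinase complex, was the steadiest of them, at 77.0 to 83.9 normalised CPM in the control-tagged and 77.7 to 84.3 in the knockout-tagged libraries. The 95% interval of its difference ran from -0.15 to 0.19. Pik3c3, the lipid kinase Vps34, was at 17.7, 23.3, 18.8 and 21.03 against 25.0, 25.5, 19.7 and 21.8. That difference of 0.19 (SE 0.12) was the largest of the group, and knockout-tagged replicates 3 and 4 lay among the controls.

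Atg14 and Uvrag bind Beclin 1 in separate versions of this complex, the first for autophagosome formation and the second for later traffic to the lysosome. Their estimates had opposite signs: Atg14 differed by 0.18 (SE 0.15), or 0.07 without control replicate 3, and Uvrag by -0.08 (SE 0.11). Ambra1, a Beclin 1 partner and ULK1 regulator, differed by -0.09 (SE 0.11). Wipi1 and Wipi2 bind the lipid that Vps34 makes and recruit the conjugation machinery, and both were within 0.01 of no difference.

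The 4 conjugation genes differed by -0.04 to 0.06. Atg7, the activating enzyme for both conjugation systems, had normalised CPM of 18.6, 18.4, 23.5 and 18.5 in the control-tagged and 19.3, 21.4, 20.1 and 19.6 in the knockout-tagged libraries. All 4 knockout-tagged values were above control replicates 1, 2 and 4 and below control replicate 3. Atg3, which passes LC3 and GABARAP to the lipid, differed by -0.04 (SE 0.09), with groups at 27.1 to 30.7 and 27.1 to 29.2. Atg5 and Atg12, which are joined to each other and form the ligase of the system, differed by 0.03 (SE 0.15) and 0.06 (SE 0.09).

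All 5 ATG8 genes were estimated higher in the knockout-tagged libraries, by 0.01 to 0.19, and 0 of 5 passed the test. The sign was not stable for 3 of them, since Map1lc3b, Gabarap and Gabarapl2 turned negative without control replicate 2. Map1lc3a, one of the LC3 genes, was the furthest from 0. Its normalised CPM was 532, 433, 652 and 529 in control replicates 1 to 4 and 581, 684, 689 and 499.5 in the knockout-tagged replicates, a log2 difference of 0.19 (SE 0.15) that was 0.10 without control replicate 2. Knockout-tagged replicate 4 was below 3 of the 4 controls. Map1lc3b, whose product is the LC3 form most often used to follow autophagosomes, was at 324, 275, 385 and 316 against 321, 345, 349.5 and 314, a difference of 0.03 (SE 0.11). Gabarap, Gabarapl1 and Gabarapl2, which act later in closure and fusion, differed by 0.01, 0.06 and 0.02.

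The cargo receptors Sqstm1, Optn and Nbr1 were all estimated higher, by a median of 0.16, and their summed normalised CPM was 675 to 845 in the control-tagged and 783 to 908 in the knockout-tagged libraries. Sqstm1 encodes p62, which links ubiquitinated cargo to LC3 and is itself degraded by autophagy (chromosome 11, 50199366 to 50210827, minus strand, GRCm38). It had the lowest unadjusted p of the 34 genes. Normalised CPM was 532, 486, 477 and 587 in the control-tagged libraries. In the knockout-tagged libraries it was 603, 650.4, 635 and 529. Knockout-tagged replicates 1 to 3 were above every control, whereas replicate 4 lay below control replicates 1 and 4.

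The log2 difference of Sqstm1 was 0.21 (SE 0.11, 95% interval -0.03 to 0.46, adjusted p = 0.609 in edgeR's quasi-likelihood test). An exact 2-sided permutation test over the 8 libraries gave p = 0.0857, where 0.0286 is the smallest that 4 against 4 allows. Of the exon bases annotated to Sqstm1, 17.3% are shared with Mrnip on the opposite strand. The strand setting of the counting is not given in the sources used here. The same limit is larger for Becn1, which shares 43.9% with Cntd1, and for Gabarapl1, which shares 28.3% with 1700101I11Rik, and smaller for Ctsb (12.8% with Fdft1) and Lamp1 (9.31% with Grtp1). On its own strand Pink1 shares 4.12% with Gm27646 and 2.58% with Mir7019, which holds under either strand setting. Nbr1, a receptor built like p62, was at 113, 119.8, 97.3 and 123 in the control-tagged and 136, 129, 124 and 118 in the knockout-tagged libraries, a difference of 0.16 (SE 0.10). Only knockout-tagged replicate 4 was below the 2 highest controls. Optn, the receptor that works with the kinase Tbk1, differed by 0.13 (SE 0.13), and by 0.05 without control replicate 3 or knockout-tagged replicate 3.

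The 3 mitophagy genes were estimated higher as well, and 0 of 3 passed the test. The estimates of Pink1 and Bnip3l turned negative with 1 library left out, Pink1 without control replicate 2 or knockout-tagged replicate 3 and Bnip3l without control replicate 3. Fundc1, an outer mitochondrial membrane receptor linked to mitophagy in hypoxia, had the largest positive estimate of the set, 0.23 (SE 0.14). It was at 20.5, 18.0, 12.6 and 17.6 normalised CPM in the control-tagged and 18.9, 19.7, 19.8 and 21.9 in the knockout-tagged libraries. Control replicate 3 was the lowest value, and the difference without it was 0.10. Pink1, the kinase that marks depolarised mitochondria for removal, varied widely between libraries of one group. Its normalised CPM was 721, 478, 1012 and 748 in the control-tagged and 745, 729, 1036 and 702 in the knockout-tagged libraries. Each group held 1 library above 1000, replicate 3 in both, and the log2 difference was 0.12 (SE 0.21). Bnip3l, the receptor NIX, differed by 0.04 (SE 0.09).

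For the lysosomal side the estimates had a negative sign: those of both transcription factors, both membrane proteins and all 3 cathepsins ran from -0.11 to -0.03, and 0 of these 7 genes passed the test. For 3 of the 7 the sign turned with 1 library left out: Tfeb without control replicate 4 or knockout-tagged replicate 4, Tfe3 without control replicate 2, and Ctsd without control replicate 3. Tfeb and Tfe3, which drive lysosomal genes when they enter the nucleus, differed by -0.03 (SE 0.10) and -0.04 (SE 0.10). Lamp1, the main glycoprotein of the lysosomal membrane, had normalised CPM of 850.3, 754, 998 and 741 in the control-tagged and 786, 769.7, 759 and 783 in the knockout-tagged libraries. The knockout-tagged values lay inside the control range. The difference was -0.11 (SE 0.12), and -0.02 without control replicate 3. Lamp2, needed for fusion of autophagosomes with lysosomes in cardiac muscle, differed by -0.07 (SE 0.09).

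Ctsd, the aspartic protease cathepsin D, was at 2088, 1795, 2415 and 1913 normalised CPM in control replicates 1 to 4 and at 1971, 1930.2, 2059 and 2026 in the knockout-tagged ones. Here too every knockout-tagged library fell between the lowest and the highest control, and the log2 difference was -0.04 (SE 0.13). The cysteine proteases Ctsb and Ctsl differed by -0.10 (SE 0.12) and -0.11 (SE 0.11), with groups that overlapped.

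**Figure D2:**
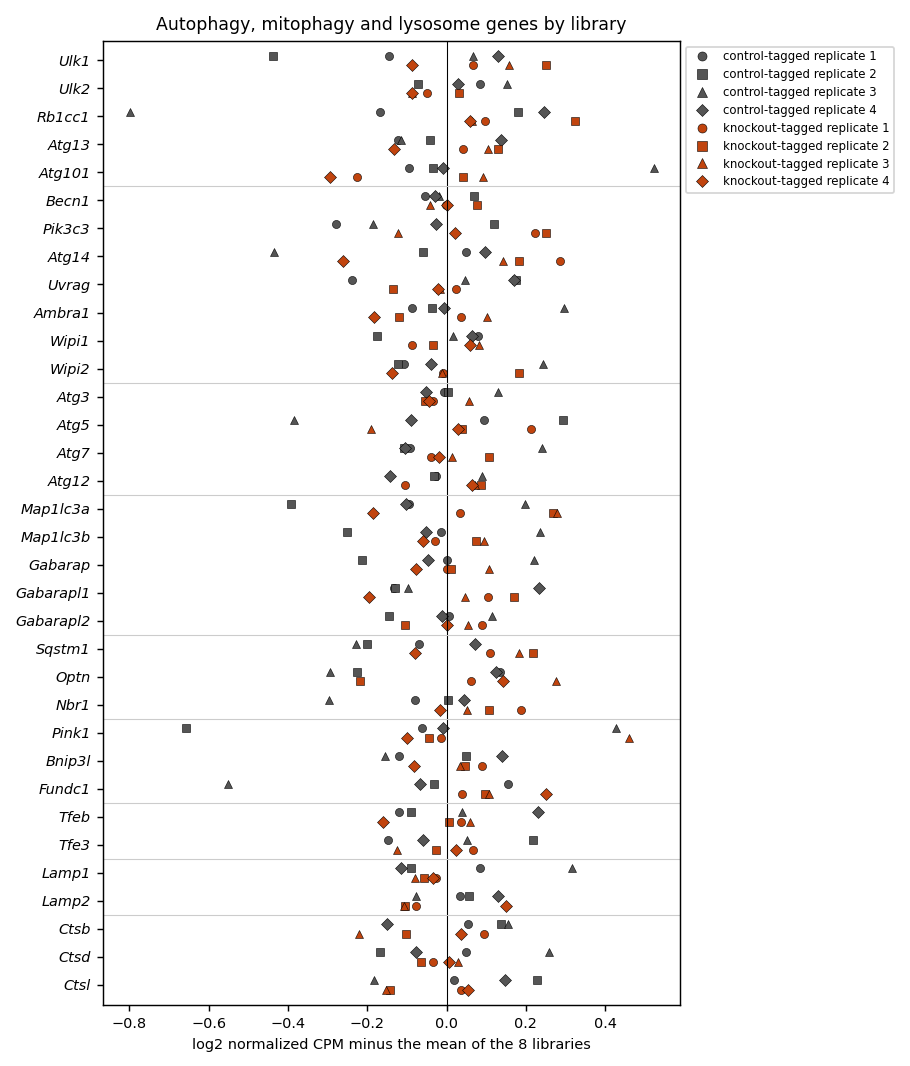
Each row is a gene, and each point is the log2 normalised CPM of 1 library minus the mean of the 8 libraries for that gene; grey marks are the 4 control-tagged and orange marks the 4 knockout-tagged libraries, with 1 shape per replicate number. Grey and orange marks overlap in every row, and the grey triangle, control replicate 3, is at an end of the row for 22 of the 34 genes.

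The libraries differed more within the control group than within the knockout-tagged group. The SD of log2 normalised CPM was larger among the controls for 31 of the 34 genes (91.2%), where it was larger for 63.1% of all genes tested. Its median was 0.17 in the control-tagged and 0.10 in the knockout-tagged libraries for the 34 genes, and 0.22 and 0.17 for all genes, which were not matched for level. Lamp1 had an SD of 119 normalised CPM among the controls and of 12.7 among the knockout-tagged libraries. For Ctsd the SDs were 270.0 and 57.1.

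Control replicate 3 carried much of this spread. It was the highest of the 8 libraries for 13 genes, among them Atg7, Atg101, Ctsd, Gabarap, Lamp1 and Map1lc3b, and the lowest for 9, among them Fundc1, Nbr1, Rb1cc1 and Sqstm1. Those 22 genes are 64.7% of the set, where this library was at an end for 45.3% of all genes. Without it the SD was larger among the controls for 21 of the 34 genes (61.8%), where it was larger for 50.4% of all genes. Control replicate 2 was at an end for 13 of the 34 genes, 38.2% in the set as among all genes, and was the lowest for Ctsd, Gabarap, Map1lc3a, Map1lc3b, Pink1 and Ulk1 among others. The part that depth or RNA quality of these libraries plays was not tested.

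Levels of different genes were compared per kilobase of the longest principal transcript, as normalised CPM per kb averaged over the 8 libraries. On this scale the set spanned from 952 for Ctsd to 3.65 for Atg14. After Ctsd came Map1lc3a at 517, Lamp1 at 361, Pink1 at 325, Sqstm1 at 276, Gabarap at 191, Ctsb at 160 and Map1lc3b at 130. This upper end thus held 2 of the cathepsins, 3 of the 5 ATG8 genes, a membrane glycoprotein, a receptor and the mitophagy kinase.

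The low end was held mainly by genes of nucleation and conjugation. Below 10 normalised CPM per kb were Fundc1 at 9.40, Tfe3 at 8.93, Atg12 at 8.03, Ambra1 at 7.88, Atg5 at 7.05, Pik3c3 at 6.63, Rb1cc1 at 5.63, Atg7 at 5.30, Uvrag at 5.11 and Atg14. Among 12722 genes ranked this way, 10 of the 34 were above percentile 90, 29 above the middle and 5 below it. Ctsd was at percentile 99.4 and Atg14 at 35.3. Of the 33 pairs of neighbours in the order, 28 overlapped in their ranges over libraries. The 5 steps that did not were from Ctsd to Map1lc3a, Sqstm1 to Gabarap, Map1lc3b to Gabarapl1, Wipi1 to Optn and Atg3 to Fundc1.

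**Figure D3:**
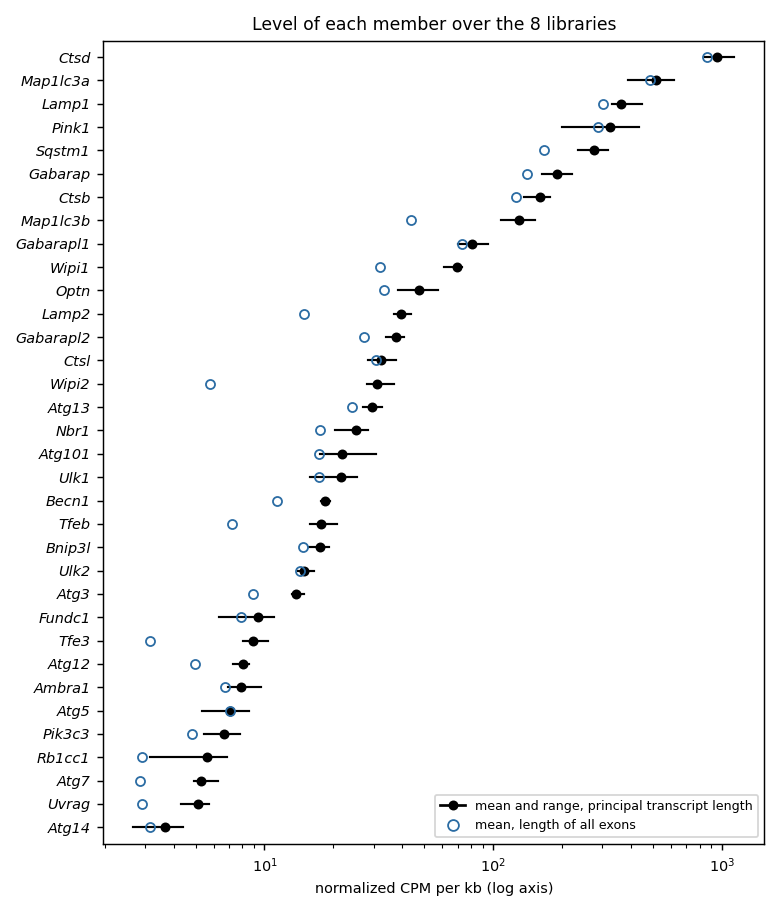
Black points give the mean level of each gene over the 8 libraries in normalised CPM per kb of the longest principal transcript, on a log axis, with bars from the lowest to the highest library; open blue circles use the length of all annotated exons, a choice made after the values were seen. With exon length the first 7 genes keep their order, and the largest shift is that of Wipi2, by 5.38 times.

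Ratios between relatives or partners cancel the scaling of a library, so 8 such ratios were compared as log2 of one gene's normalised CPM over the other's. Ulk1 over Ulk2 moved furthest, from 0.24 ± 0.20 (SD, n = 4) in the control-tagged to 0.53 ± 0.11 (SD, n = 4) in the knockout-tagged libraries. By library it was 0.16, 0.02, 0.30 and 0.49 against 0.50, 0.61, 0.63 and 0.39. Knockout-tagged replicate 4 lay below control replicate 4, so the groups overlapped. The exact 2-sided permutation p was 0.0571, and 0.457 after adjustment over the 8 ratios. Map1lc3a over Map1lc3b was 0.72 ± 0.05 and 0.87 ± 0.15 (SD, n = 4 each), with an exact permutation p of 0.114 and an adjusted p of 0.457. For the other 6 ratios the groups differed by -0.07 to 0.04 and the adjusted exact permutation p was 1.

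**Figure D4:**
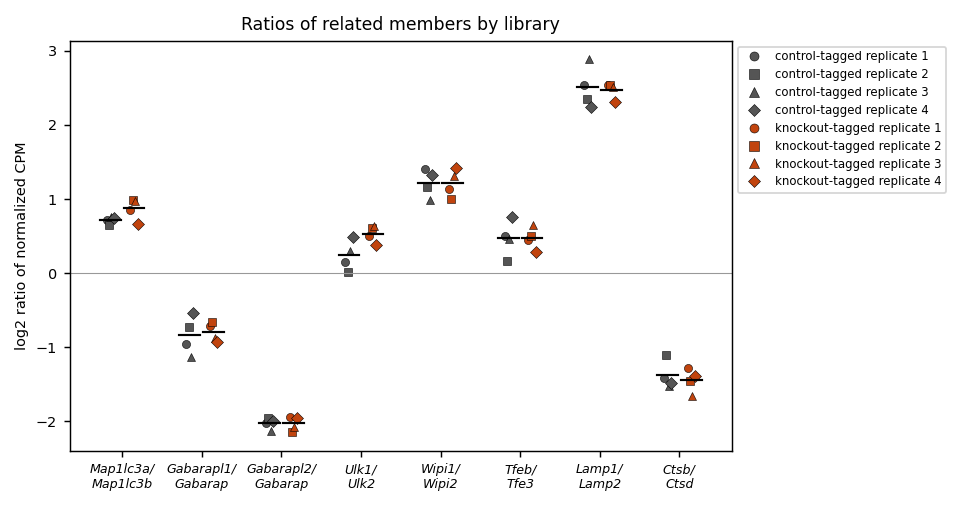
The vertical axis is the log2 ratio of normalised CPM for 8 pairs of genes, with 1 mark per library (grey control-tagged, orange knockout-tagged, shapes for replicate numbers) and a bar at each group's mean. The groups overlap in all 8 pairs, and the means for Ulk1 over Ulk2, 0.24 and 0.53, are the furthest apart.

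Tfeb, Tfe3 and their relative Mitf bind a DNA element with the core CACGTG, which recurs in promoters of lysosomal genes. These letters read the same on both strands, so 1 search covers both. RefSeq promoter windows on GRCm38.p6, from 250 bases before to 50 after the start, were at hand for 27 of the 34 genes. The core was present in 7 of the 27 (25.9%): Atg3, Atg5, Atg7, Atg14, Ctsd, Ctsl and Lamp1. Counted once per gene if any of its windows held it, the core was present for 8.09% of 27025 genes with windows of the same length. Those genes were not limited to the ones expressed here. It was present in 17 of 49 other lysosomal genes (34.7%). The stretches of the 3 promoters that show it most plainly follow, 5′ to 3′ on the gene's strand, with the core in capitals. They are the window from 70 to 1 bases before the start of Lamp1 (chr8:13159091-13159160, plus strand), a window before the start of Ctsd (chr7:142387898-142387937, minus strand) and 1 before that of Atg3 (chr16:45158719-45158778, plus strand). These starts are those of RefSeq. GENCODE M21 places Ctsd at 142375911 to 142388038, so by that annotation its window lies inside the gene.
Lamp1: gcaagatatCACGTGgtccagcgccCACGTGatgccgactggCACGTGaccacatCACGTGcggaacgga
Ctsd: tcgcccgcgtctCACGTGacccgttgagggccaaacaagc
Atg3: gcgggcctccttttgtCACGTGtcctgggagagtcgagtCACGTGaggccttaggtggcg

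Lamp1 held the core 4 times, Atg3 2 times in this stretch, and Ctsd once here and once more 245 bases before its start. The 7 genes with the core had a median log2 difference of -0.04 between the groups, 3 higher and 4 lower, and ranged from -0.11 for Lamp1 to 0.18 for Atg14. The 20 genes without it had a median of 0.02. A match of letters is not a bound site.

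Around the 34 genes, 116 further genes of the pathway were listed and 114 tested. By edgeR's quasi-likelihood test 0 of the 114 were called, and 8 (7.02%) had an unadjusted p under 0.05, against 8.96% of all genes. Those 8 were 5 higher and 3 lower, beside the 3.32% and 5.64% of all genes. The groups did not overlap for 6 of the 114 (5.26%), against 4.98% of all genes. The median log2 difference was 0.01, with 60 genes estimated higher and 54 lower. By list, those estimated lower were 9 of 23 core autophagy genes and 5 of 18 receptors and mitophagy genes. They were also 21 of 35 hydrolases and cofactors, 18 of 29 membrane and acidification genes and 1 of 9 regulators.

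Core autophagy had 0 of 23 genes at an unadjusted p under 0.05. Receptors and mitophagy genes had 1 of 18 (5.56%) and hydrolases and their cofactors 5 of 35 (14.3%), of which 2 were higher and 3 lower. Membrane and acidification genes had 1 of 29 (3.45%) and regulators 1 of 9 (11.1%). The share over all genes tested was 8.96%, and the lists were not tested against it.

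Ctsz, the lysosomal carboxypeptidase cathepsin Z, had the lowest unadjusted p among the 114 genes. It was at 83.4, 84.5, 122 and 59.7 normalised CPM in the control-tagged and 68.3, 53.6, 52.4 and 66.6 in the knockout-tagged libraries. Control replicate 3 was far above the rest and control replicate 4 lay inside the knockout-tagged range. The log2 difference was -0.54 (SE 0.18, adjusted p = 0.468, edgeR), and it was -0.34 without control replicate 3. The hydrolases Gusb and Sgsh, which break down glycosaminoglycans, differed by -0.29 (SE 0.13) and -0.30 (SE 0.14), while Idua of the same pathway differed by 0.24 (SE 0.11) and the cysteine protease Ctsf by 0.20 (SE 0.09).

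Bnip3, the hypoxia-induced mitophagy receptor closest to Bnip3l, was at 149.9, 174, 79.97 and 185 in the control-tagged and 215, 229, 183 and 183 in the knockout-tagged libraries. The low value was again control replicate 3. The log2 difference was 0.46 (SE 0.21, adjusted p = 0.556, edgeR) and 0.25 without that library. Atp6v1g1, a subunit of the proton pump that acidifies the lysosome, was at 76.1, 75.8, 44.7 and 83.3 against 90.2, 96.7, 85.1 and 90.9. Its groups were fully apart, with a difference of 0.38 (SE 0.16, adjusted p = 0.532, edgeR), and of 0.21 without control replicate 3. Mitf, the relative of Tfeb and Tfe3 named above, differed by 0.34 (SE 0.12, adjusted p = 0.492, edgeR). Groups were also fully apart, with smaller differences, for Atg10, Smpd1 and Scarb2, which were higher, and for Wdfy3 and Grn, which were lower. Each of those 5 had a log2 difference between -0.18 and 0.17.

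**Figure D5:**
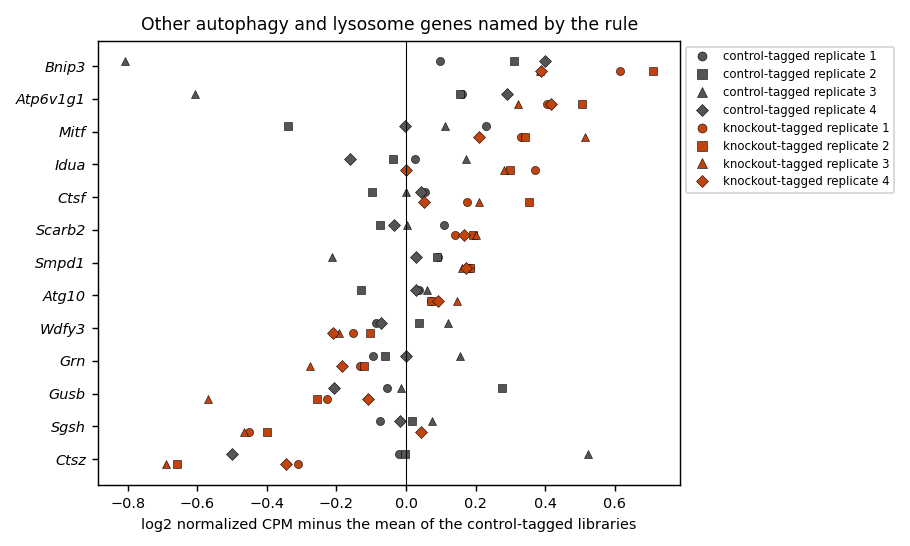
For the 13 further pathway genes with an unadjusted p under 0.05 or groups fully apart, each mark is the log2 normalised CPM of 1 library minus the mean of the 4 control-tagged libraries (grey control-tagged, orange knockout-tagged, shapes for replicate numbers). Control replicate 3, the grey triangle, is the outlying control for Bnip3 and Atp6v1g1. For Ctsz it is the highest control, and control replicate 4 is the lowest.

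Markers of the cell types in the tissue were read beside these genes, because lysosomal genes are abundant in macrophages. No marker passed the adjusted test. All 10 macrophage markers were estimated lower in the knockout-tagged libraries, by a median of 0.31 on the log2 scale, and their summed normalised CPM was 577 to 719 in the control-tagged and 393 to 574 in the other group. Csf1r and Cd163 had an unadjusted p under 0.05. Estimates were lower for 5 of 6 endothelial markers (sums 1288 to 1617 against 1174 to 1303), 5 of 6 mural cell markers (sums 1147 to 1652 against 781 to 1261), 6 of 6 fibroblast markers and 5 of 5 red blood cell markers. The mural list had the largest median, -0.46, with groups fully apart for Pdgfrb and Cspg4, and 3 of its 6 markers had an unadjusted p under 0.05, as had 3 of 6 in the endothelial list. The mural markers did not move together: Myh11 differed by -0.02 (SE 0.17) and Tagln by 0.001 (SE 0.14). Acta2 differed by -0.43 (SE 0.36), with control replicate 3 at 582 normalised CPM and the other controls at 211 to 243. Of all genes tested, 50.3% were estimated lower, and the groups were apart for 4.98%. At an unadjusted p under 0.05 in edgeR's quasi-likelihood test were 8.96% of all genes, with 5.64% lower.

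Of the 8 cardiomyocyte markers 7 were estimated higher, with sums of 69570 to 105947 against 90019 to 110638. Tnni3 and Pln, 2 of the 8 (25%), had an unadjusted p under 0.05, and 1 of the 8, Pln, had groups fully apart. None of these markers was at 0 in any library, and of the 4 atrial markers Sln had 0 to 3 counts per library, Myl7 3 to 17, Myl4 40 to 61 and Nr2f2, which veins also express, 117 to 244. The part of cell composition in the values of the 34 genes was not tested.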

How the data were processed

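The authors deposited unnormalised counts per gene for 8 libraries. Per the labels and the study's methods, reads were trimmed with Trim Galore 0.4.4, aligned to GRCm38 with STAR 2.5.4b and counted with featureCounts; the strand setting of the counting is not given in the sources used here. Dose, day, sex and age of the mice are from the study's methods. The labels describe rRNA depletion, whereas the methods describe poly-A selection with a stranded kit. No column was left unmapped to a sample.

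Genes with at least 1 CPM in at least 2 libraries were kept, and libraries were scaled by TMM. The groups of 4 were compared on the whole table with the quasi-likelihood test of edgeR 4.0.16 in R 4.3.3. On simulated data the test was tried only with planted changes above 1.5-fold, which does not bear on smaller differences. P-values were adjusted by the Benjamini-Hochberg method over the 13542 genes tested. A gene was called at a false discovery rate under 0.1 and a change of at least 1.5-fold. The common biological coefficient of variation was 15.1%. Log2 ratios of 2 genes used a prior count of 2 and an exact permutation test (SciPy 1.17.1). Lengths and coordinates are from GENCODE M21 on GRCm38 and promoter sequences from RefSeq. Replicate pairs differed by more than sampling noise (chi-square per degree of freedom 7.20 to 53.7). Tried as alternatives were DESeq2 1.42.0, edgeR's likelihood ratio test, RLE and total-count scaling, all genes with a count, a replicate block and each library left out.

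The 34 genes and the lists were chosen with earlier results of these data known. All 34 genes are named, together with Flt1, any of the 116 further pathway genes with an unadjusted p under 0.05 or groups fully apart, and any marker with an unadjusted p under 0.05. Beside Csf1r and Cd163 these markers were Pecam1, Cdh5 and Tie1 of the endothelium, Pdgfrb, Rgs5 and Cspg4 of mural cells, all estimated lower, and Tnni3 and Pln of cardiomyocytes, both estimated higher. Atg2a and Vamp8 were listed and are not analysed here.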

Additional observations from a re-analysis of the deposited data

Results flagged for a closer look

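Among 116 groups of 4 libraries, 8 had 1 library whose gap to the nearest of the others was larger than a 95% limit allows. For independent groups chance alone would give about 1 in 20, or 5.8. These groups share the same 8 libraries, and some genes were named for their p-value or groups fully apart. The 5.8 is therefore not the number that chance gives for this set. The values are in normalised CPM. Control replicate 3 stood above the other controls for Atg101, at 39.1 against 25.5 to 27.1, and for Atg7, at 23.5 against 18.4 to 18.6. Control replicate 4 was high for Gabarapl1, at 172 against 133 to 137. In the knockout-tagged group, replicate 1 was low for Atg12, at 35.5 against 39.9 to 40.6. Replicate 2 was high for Rb1cc1, at 52.3 against 43.5 to 44.7, and replicate 3 for Pink1, at 1036 against 702 to 745. Replicate 4 was high for Lamp2, at 157.9 against 132 to 135, and for Sgsh of the further pathway genes, at 13.2 against 9.24 to 9.68.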

How the results depend on the processing

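The number of the 34 genes called was 0 under every alternative, and the lowest adjusted p of any of them over the 14 alternatives was 0.493. At an unadjusted p under 0.05 DESeq2 had 1, Sqstm1, and leaving out libraries gave 0 to 1: Sqstm1 without control replicate 4 or knockout-tagged replicate 4, and Fundc1 without control replicate 1. Of all genes, 8.67% passed in DESeq2, 9.11% without control replicate 4, 9.94% without knockout-tagged replicate 4 and 10.1% without control replicate 1. Total-count scaling left 1 of the 34 with groups apart, Ulk2, against 3.95% of all genes, and leaving out libraries 0 to 3, the most without knockout-tagged replicate 4 (Sqstm1, Nbr1 and Atg14), against 10.3% of all genes. The median log2 difference stayed at 0.01 to 0.02 outside the left-out libraries, where it was -0.02 to 0.04. Of the further pathway genes, the likelihood ratio test had 5 and total-count scaling 3 at an unadjusted p under 0.05 in place of 8, and leaving out libraries gave 2 to 9, the fewest without knockout-tagged replicate 2 or 3. Over all genes these counts were 1238 and 948 in place of 1213, and 707 and 837 without those libraries. Of all genes, 53 were called by the likelihood ratio test, 32 by DESeq2, 23 with no filter, and 1 to 3 with a library left out.

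Signs held for 20 of the 34 genes throughout. Under total counts Becn1 (-0.000987), Wipi1 (-0.00532) and Wipi2 (-0.000670) turned. With a library left out the log2 difference crossed 0 for Becn1 (-0.00811 to 0.0440), Ambra1 (-0.138 to 0.00432), Wipi1 (-0.0473 to 0.0369), Wipi2 (-0.0555 to 0.0971), Atg5 (-0.0828 to 0.144), Atg7 (-0.00937 to 0.115), Map1lc3b (-0.0403 to 0.122), Gabarap (-0.0516 to 0.0924), Gabarapl2 (-0.0248 to 0.0592), Pink1 (-0.0431 to 0.305), Bnip3l (-0.00521 to 0.0967), Tfeb (-0.0808 to 0.0428), Tfe3 (-0.0922 to 0.0354) and Ctsd (-0.0995 to 0.0449). So did the ratios Gabarapl1 over Gabarap (-0.0553 to 0.144), Gabarapl2 over Gabarap (-0.0354 to 0.0388), Wipi1 over Wipi2 (-0.0800 to 0.0684), Tfeb over Tfe3 (-0.101 to 0.0985), Lamp1 over Lamp2 (-0.115 to 0.0970) and Ctsb over Ctsd (-0.120 to 0.0249). The cause was not tested.

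The replicate numbers share no source that the labels give, so they were not treated as pairs. In their deviations from group means same-numbered libraries correlated at -0.06 to 0.34, and differently numbered ones at -0.49 to 0.30. The highest value was that of replicate 3. A replicate block gave 0 of the 34 genes called, a median of 0.02, 7 further pathway genes at an unadjusted p under 0.05 and 1 gene called of all.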
